A study of Mus musculus with 20 samples.

Results

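This account covers 6 oncofetal genes, Igf2bp1, Igf2bp2, Igf2bp3, Lin28b, Hmga1 and Hmga2, out of 46603 gene identifiers counted in 20 mouse liver libraries. They were taken by name, but Igf2bp1 and Igf2bp3 were chosen by their higher measured level in the knockout, so the knockout against wild-type values of these 2 genes are given as a description with no test. The libraries are poly(A) RNA-seq of liver from male mice aged 2 months. Wild-type mice (WT) were C57BL/6J animals from a vendor. Knockout mice (KO, named EedHepKO) carried the Albumin:Cre transgene and floxed Eed alleles, with loxP sites around exons 3 and 6. The albumin promoter drives Cre in hepatocytes, and which other cells of the liver kept Eed was not measured here. Baseline tissue was lobes 1, 2 and 3, taken out in the operation itself (partial hepatectomy, PHx, which removes most of the liver), and tissue after PHx was lobes 4, 5 and 6, with 5 libraries in each of the 4 groups of genotype and stage. The tissue after PHx was taken at 30 h (1 mouse per genotype), 40 h (2 mice) and 48 h (2 mice). Genotype cannot be told apart from the colony of origin, nor stage from the lobes taken, and p-values measure the spread between these animals only.

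EED is a core subunit of polycomb repressive complex 2 (PRC2), which methylates lysine 27 of histone H3 at silent genes, many of them genes of the embryo. IGF2BP1, IGF2BP2 and IGF2BP3 are related RNA-binding proteins that bind and stabilise mRNAs, among them Igf2 and Myc, and IGF2BP1 and IGF2BP3 are known as proteins of the embryo and of tumours that adult liver largely lacks. LIN28B binds precursors of the microRNA let-7 and blocks their maturation, and let-7 in turn pairs with the mRNAs of Lin28b, Hmga2 and the Igf2bp genes, so that LIN28B and let-7 restrain each other; this circuit is best known from fetal tissues and tumours. HMGA1 and HMGA2 are small proteins that bind AT-rich DNA and change its bending and packing.

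The let-7 family pairs with its targets through its seed, bases 2 to 8 of the microRNA, and matches to it were sought in the 6 genes. All 9 mature let-7 family names in RefSeq (GRCm38.p6) have the same seed, GAGGUAG. The lines that follow show 3 of them, with the seed in capitals.
let-7a: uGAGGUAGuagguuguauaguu
let-7b: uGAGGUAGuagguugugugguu
miR-98: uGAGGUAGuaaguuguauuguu

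The matching DNA word, CTACCTC, was searched on the sense strand of the longest annotated 3′ UTR of each gene (GENCODE M21, GRCm38). Each of the 6 genes had at least 1 match. Igf2bp1, Lin28b and Hmga2 had 4 each, and Igf2bp2, Igf2bp3 and Hmga1 had 1 each. Of 20737 genes with an annotated 3′ UTR, 1876 (9.05%) had a match, and 12 genes had 4 or more, of which 3 are Igf2bp1, Lin28b and Hmga2. Long UTRs hold more matches. Among the 595 genes with a 3′ UTR of like length to that of Igf2bp1 (6337 bases), 34.3% had a match and 0.168% had as many as 4. The corresponding shares were 24.3% and 0.223% of 1343 genes for Lin28b (4445 bases), and 16% and 0.0828% of 2415 genes for Hmga2 (3014 bases). For the genes with 1 match, a match was present in 12.1% of 3117 genes of like length for Igf2bp2, 13.3% of 3017 for Igf2bp3 and 8.24% of 3035 for Hmga1. The lines that follow give 30 bases around the matches followed by an A in the Igf2bp genes, around the match nearest the stop codon of Lin28b and Hmga2, and around the match of Hmga1, with the matching word in capitals (and the A after it, where present, a base known to favour pairing). Coordinates are on mm10 (GRCm38), in the 3′ UTR of each gene.
Igf2bp1, 1715 bases after the stop codon, chr11:95961773-95961802, minus strand: gtgctgtgcgaagtaaaCTACCTCAaggtg
Igf2bp1, 4136 bases after the stop codon, chr11:95959352-95959381, minus strand: accagcagtgctattaaCTACCTCAgcccc
Igf2bp1, 4730 bases after the stop codon, chr11:95958758-95958787, minus strand: gagtataaatggatgaaCTACCTCAgtcct
Igf2bp2, 1313 bases after the stop codon, chr16:22059468-22059497, minus strand: aaacacacaaataaaagCTACCTCAggtgt
Igf2bp3, 548 bases after the stop codon, chr6:49086782-49086811, minus strand: cgtgcatttttactcaaCTACCTCAggtat
Lin28b, 36 bases after the stop codon, chr10:45381017-45381046, minus strand: tcacccgggcgggaagtCTACCTCAtgcaa
Hmga1, 801 bases after the stop codon, chr17:27563275-27563304, plus strand: tctcctctgttcacaaaCTACCTCtggacg
Hmga2, 58 bases after the stop codon, chr10:120364219-120364248, minus strand: gcgccgacattcaatttCTACCTCAgcatc
All 3 Igf2bp genes have a match followed by A, and so do the first matches of Lin28b and Hmga2. The match of Hmga1 is followed by another base. A match is a description of sequence only, and let-7 itself was not measured in these poly(A) libraries.

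**Figure D1:**
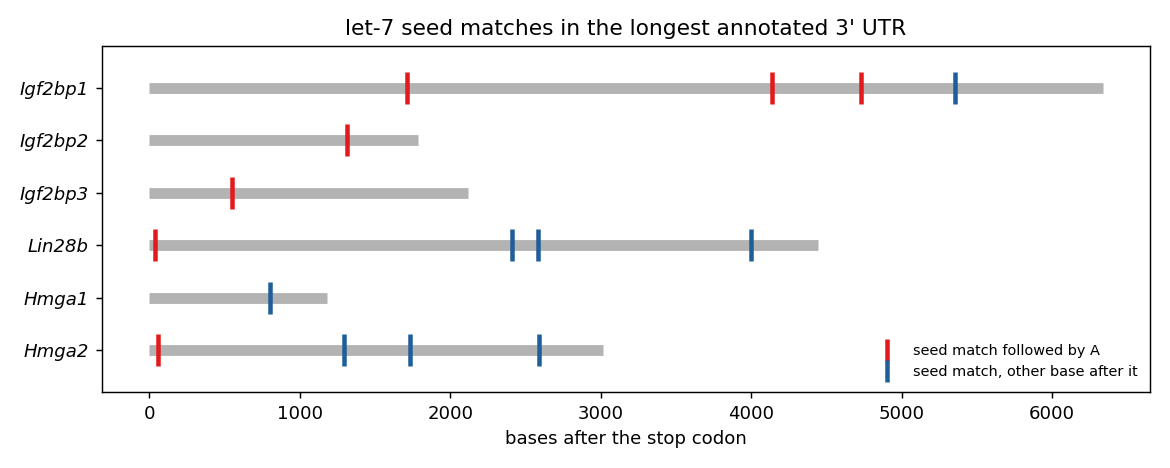
Positions of the let-7 seed match along the longest annotated 3′ UTR of each gene, in bases after the stop codon (grey bar: the whole UTR; red: match followed by A; blue: match followed by another base). Igf2bp1, Lin28b and Hmga2 have 4 matches each and the other 3 genes have 1 each.

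The second sequence feature was the base composition at the start of each gene, since CpG-rich starts are where PRC2 is known to act. RefSeq gives a region from 250 bases before to 50 bases after the start for 5 of the 6 genes. Igf2bp2 had 47 CpG dinucleotides in 300 bases, as many as or more than 98.8% of 32851 such regions, and the 2 starts of Hmga1 had 40 and 38. Igf2bp3 had 25 (83.1% of regions had as few or fewer), Hmga2 had 12 (62.1%) and Lin28b had 8 (54.2%), against a median of 7 over all regions. The lines that follow show the part from 250 to 51 bases before the start of Igf2bp3 and Igf2bp2 (RefSeq, GRCm38.p6), the Igf2bp genes that have a region and that both lay higher in every KO library than in any WT library, with every CG in capitals.
Igf2bp3, chr6:49215005-49215204, minus strand: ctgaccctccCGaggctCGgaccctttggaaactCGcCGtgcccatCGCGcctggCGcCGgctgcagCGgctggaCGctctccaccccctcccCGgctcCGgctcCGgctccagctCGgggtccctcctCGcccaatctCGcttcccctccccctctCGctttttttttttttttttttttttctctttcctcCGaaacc
Igf2bp2, chr16:22163350-22163549, minus strand: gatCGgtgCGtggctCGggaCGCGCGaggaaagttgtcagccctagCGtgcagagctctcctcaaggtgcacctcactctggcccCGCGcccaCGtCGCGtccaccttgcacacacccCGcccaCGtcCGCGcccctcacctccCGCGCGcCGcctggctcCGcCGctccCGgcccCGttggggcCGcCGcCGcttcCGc
The stretch of Igf2bp3 holds 18 CG and that of Igf2bp2 holds 28, and neither histone marks nor EED binding were measured here.

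Total counts ranged from 21634890 to 30461351 per library. Levels are CPM, counts per 1000000 of the library total after TMM scaling, and 1 count is 0.0220 to 0.0650 CPM. Eed was 14.6 to 23.2 CPM in the 10 WT libraries and 2.75 to 7.52 CPM in the 10 KO libraries, so no library went against its genotype label. Of the 6 genes, 5 passed the filter on low counts and were tested with edgeR among 14661 genes (called means a Benjamini-Hochberg adjusted p under 0.05), and Lin28b did not. A gene could pass that filter through its KO counts alone. These are bulk livers, and fewer cells of a type and less RNA per cell cannot be told apart.

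Igf2bp1, the family member known for the embryo, had no count in any of the 10 WT libraries. In KO at baseline it was 3.62, 1.99, 2.93, 1.45 and 1.97 CPM in mice 7, 8, 10, 11 and 12. After PHx it was 24.1, 32.5, 3.36, 18.4 and 14.1 CPM in the same 5 mice. Every KO library was above every WT library, and mouse 10 was the only KO mouse whose level after PHx lay within the baseline range. The KO mean was 2.39 ± 0.868 CPM before PHx and 18.5 ± 10.9 CPM after it (SD, n = 5 for both). With a floor of 3 counts for each WT group, Igf2bp1 was at least 81.4-fold higher in KO at baseline (318 counts against 0) and at least 886.9-fold higher after PHx (3332 counts against 0), values that chose the gene. Igf2bp1 passed the filter on low counts through its KO counts alone, and its KO libraries helped to choose it. The response to PHx within KO is another contrast over those libraries, so its test is not independent of the choice. It was 7.71-fold (log2 2.95, SE 0.52, edgeR adjusted p = 0.00270), in a comparison in which 29.5% of all genes tested were called and 17.5% of all genes tested were called higher. By mouse, the ratio of the level after PHx to baseline was 6.67, 16.4, 1.15, 12.6 and 7.15 in mice 7, 8, 10, 11 and 12, so all 5 were above 1 and mouse 10 only slightly.

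Igf2bp3, the related protein that is likewise known for the embryo and tumours, had the highest mean level per exon length of the 3 family members in both KO groups, although in KO mouse 12 after PHx it was the lowest of the 3. It had no count in the 5 WT libraries at baseline. After PHx in WT it had 7, 6, 10, 1 and 5 counts in replicates 1 to 5, which is 0.305, 0.261, 0.380, 0.0355 and 0.172 CPM. In KO at baseline it was 16.9, 15.5, 25.5, 16.8 and 21.6 CPM in mice 7, 8, 10, 11 and 12, a narrow range far above all WT libraries. After PHx the same KO mice had 26.9, 44.7, 25.8, 46.7 and 11.4 CPM, which overlaps the baseline range at the low end. Against the floor of 3 counts in WT it was at least 634.3-fold higher in KO at baseline (2478 counts), and pooled counts after PHx gave 152.2-fold (5529 against 29), values that again chose the gene. In WT it had 0 counts over the 5 libraries at baseline and 29 over the 5 after PHx, at least 7.34-fold more. A low WT level helped to choose the gene, so this is given with no test. All 5 WT libraries after PHx had a count, from 1 to 10. In KO the ratio after PHx to baseline was 1.59, 2.89, 1.01, 2.78 and 0.527 in mice 7, 8, 10, 11 and 12, and the change (log2 0.69, SE 0.37, edgeR adjusted p = 0.159) was not called. Without KO replicate 12 after PHx it was called at the edge of the threshold (edgeR adjusted p = 0.0499). The difference between the WT and KO responses is made of the 2 contrasts that chose the gene and carries no test. The 3′ end of Igf2bp3 overlaps Malsu1 on the other strand, and the strand setting of the counting is not given in the sources used here. Malsu1 was 12 to 16.6 CPM in the WT baseline libraries, where Igf2bp3 had no count.

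Igf2bp2, the family member that stays on in many adult tissues, was the only one of the 3 with counts in every library. It was 0.975, 0.60, 0.309, 0.459 and 0.275 CPM in WT replicates 1 to 5 at baseline. After PHx in WT it was 1.31, 1.65, 2.13, 2.98 and 1.58 CPM. KO mice 7, 8, 10, 11 and 12 had 6.37, 4.86, 4.72, 4.24 and 5.12 CPM at baseline. After PHx the same mice had 18, 20, 8.81, 19.1 and 14.4 CPM. The 4 groups did not overlap: WT baseline was lowest, then WT after PHx, then KO baseline, then KO after PHx. Among all genes tested, KO libraries lay wholly above WT libraries for 15.6% at baseline and for 7.05% after PHx. Libraries after PHx lay wholly above baseline for 6.91% of genes in WT and 6.19% in KO. Igf2bp2 was 9.76-fold higher in KO at baseline (log2 3.29, SE 0.34, edgeR adjusted p = 2.96e-06), where 16% of all genes were called, and 8.30-fold higher after PHx (log2 3.05, SE 0.32, edgeR adjusted p = 2.98e-06), where 24.2% were called. PHx raised it 3.73-fold in WT (log2 1.90, SE 0.34, edgeR adjusted p = 0.000897), where 20.1% of all genes were called, and 3.17-fold in KO (log2 1.67, SE 0.31, edgeR adjusted p = 0.00136). The KO response minus the WT response was -0.23 on the log2 scale (SE 0.43, edgeR adjusted p = 0.865) and was not called, in a comparison that called 0.389% of genes. All 9 mice with a library at both stages showed the rise, by 2.76, 6.90, 6.49 and 5.74 times in WT mice 2, 3, 4 and 5, and by 1.86 to 4.50 times in KO mice, with mouse 10 lowest. These 4 calls held under every alternative that was run.

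**Figure D2:**
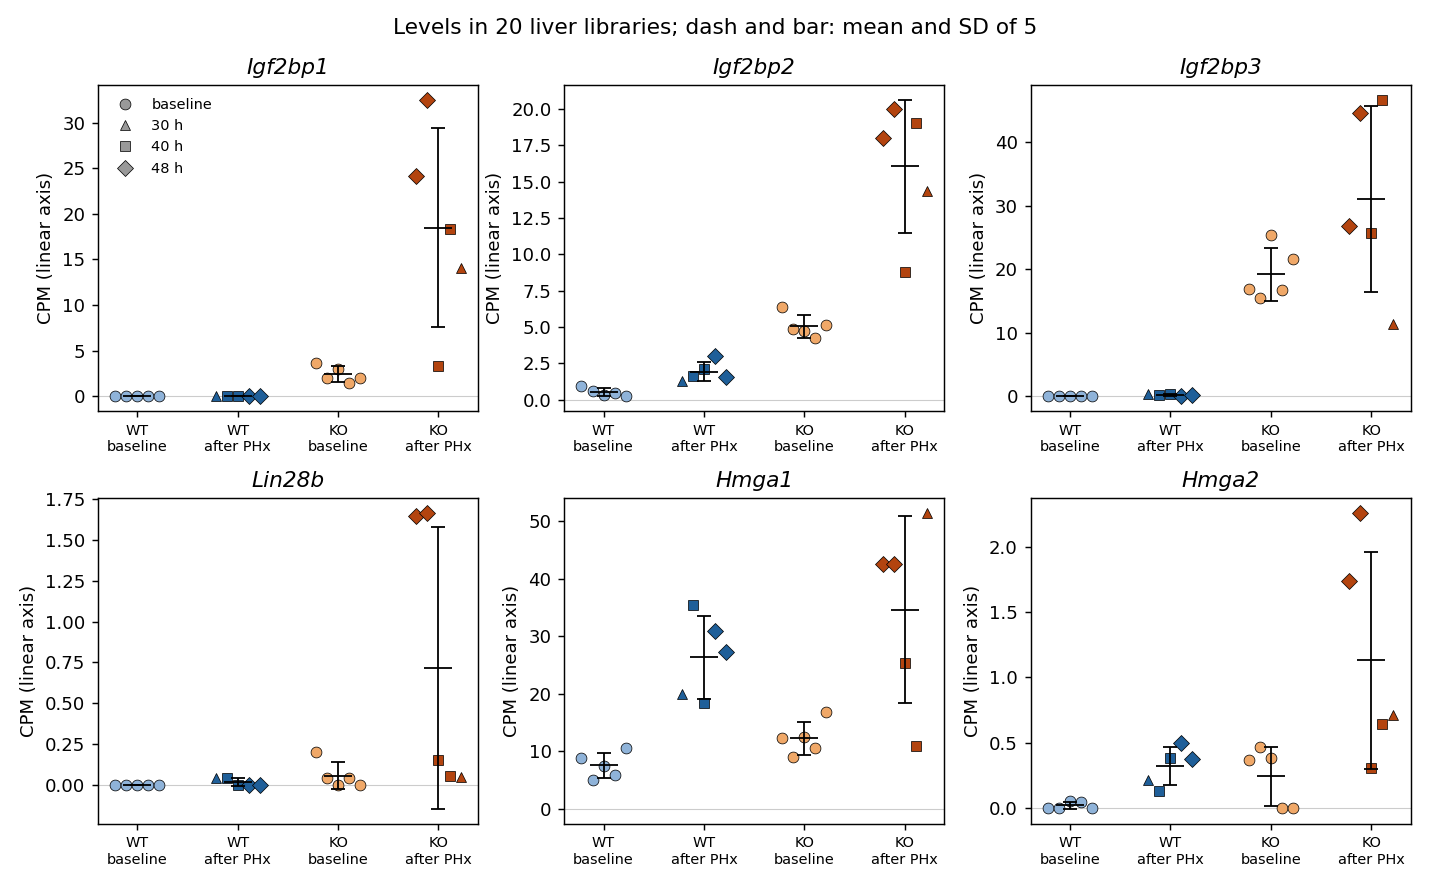
CPM of each gene in 20 libraries on linear axes that differ between panels (points: libraries, with the shape giving hours after PHx; dash and bar: mean and SD of 5). Igf2bp2 steps up through the 4 groups without overlap, Igf2bp1 has no count in WT, and only the 2 KO libraries at 48 h rise above 0.2 CPM of Lin28b.

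The makeup of the Igf2bp family was compared between genotypes on the scale of CPM per kb of exon. The summed level of the 3 genes was 0.0707 CPM per kb in WT at baseline and 0.289 CPM per kb in WT after PHx. It was 3.29 ± 0.549 CPM per kb (SD, n = 5) in KO at baseline and 7.89 ± 3.10 (SD, n = 5) in KO after PHx. In WT, Igf2bp2 made up 100% of the sum at baseline and 89.2% ± 6.23 (SD, n = 5) after PHx, with Igf2bp3 as the rest. In KO at baseline, Igf2bp3 made up 71.4% ± 5.73, Igf2bp2 21.1% ± 3.99 and Igf2bp1 7.47% ± 2.34 (SD, n = 5 for each). In KO after PHx the shares were 48.0% ± 14.6 for Igf2bp3, 28.8% ± 6.91 for Igf2bp2 and 23.2% ± 10.1 for Igf2bp1 (SD, n = 5 for each). The share of Igf2bp1 reached 7.38% to 30.4% in the single KO libraries after PHx, and the lowest was that of mouse 10. These shares follow in part from the choice of Igf2bp1 and Igf2bp3 and carry no test.

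**Figure D3:**
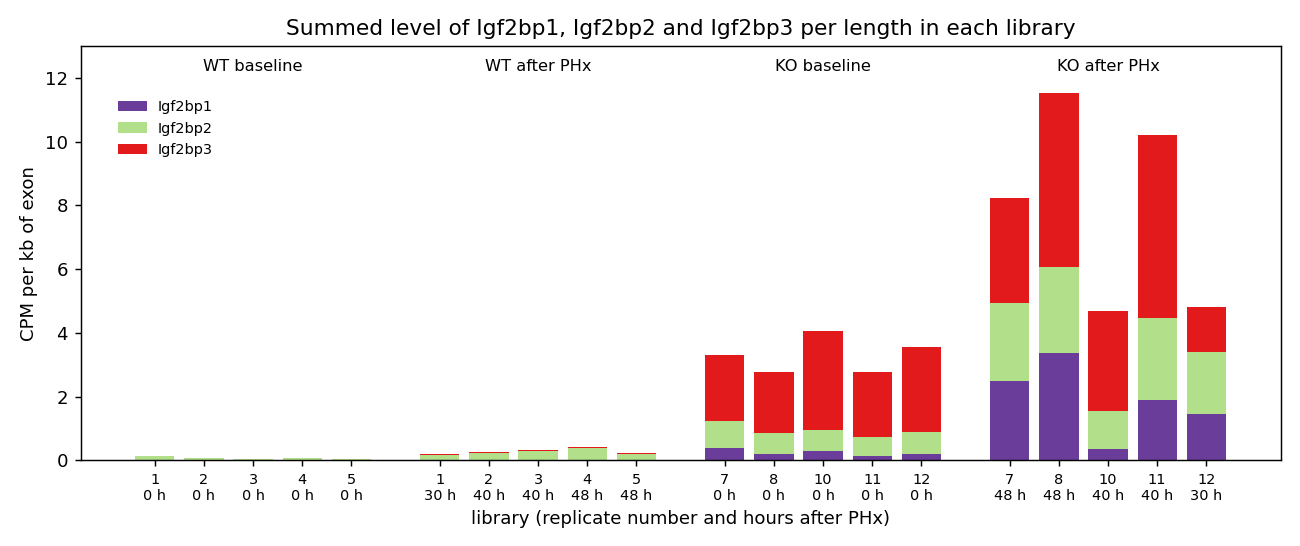
Summed level of Igf2bp1, Igf2bp2 and Igf2bp3 in CPM per kb of exon in each of the 20 libraries, stacked by gene, with replicate number and hours after PHx under each bar. All 10 WT bars stay at or under 0.407 CPM per kb, KO baseline bars lie between 2.76 and 4.06, and KO bars after PHx between 4.70 and 11.5.

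Lin28b, the let-7 antagonist, had 6 counts or fewer in all but 2 libraries. It had no count in WT at baseline. After PHx, WT replicates 1 and 2 had 1 count each and replicates 3, 4 and 5 had none. KO mice 7, 8, 10, 11 and 12 had 6, 1, 0, 1 and 0 counts at baseline. After PHx they had 55, 76, 4, 2 and 1 counts, which is 1.65, 1.67, 0.153, 0.0556 and 0.0473 CPM. Mice 7 and 8 are the KO mice taken at 48 h, and both WT libraries taken at 48 h had no count. With 2 KO libraries at that time, the role of time was not tested. Pooled counts after PHx were 138 in KO and 2 in WT, a ratio of 55.1 with a 95% counting interval of 15 to 459.5. Over 5 against 5 libraries the difference was 0.697 CPM (two-sided exact permutation p = 0.00794, the smallest that the splits of these 10 libraries allow, and 0.0317 adjusted over 4 tests). That rank order is narrow, since the lowest KO library and the highest WT libraries had 1 count each. KO against WT at baseline (exact permutation p = 0.167, adjusted 0.222) and the responses in WT (0.444, adjusted 0.444) and in KO (0.103, adjusted 0.206) did not pass. By mouse, Lin28b was higher after PHx in all 5 KO mice, from 6 to 55 and from 1 to 76 counts in mice 7 and 8 and by 4 counts or fewer in mice 10, 11 and 12. A paired form chosen after seeing the data, exact sign flips over these 5 mice, gave a two-sided exact p of 0.0625, the smallest that 5 mice allow, so it could not pass. Without KO replicate 7 at baseline the unpaired KO response had an unadjusted exact permutation p of 0.0159.

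Lin28a, paralog of Lin28b, and Trim71, a let-7 target that acts with LIN28 in embryonic cells, were likewise counted almost only in KO after PHx. Lin28a had no count in the 15 libraries of WT and of KO at baseline, and was 1.56, 6.94, 0.0381, 3.09 and 0 CPM in KO mice 7, 8, 10, 11 and 12 after PHx. Trim71 was 3.33, 0.703, 0.153, 0.111 and 1.18 CPM in those 5 libraries, against a total of 2 counts in the WT libraries after PHx and none at baseline. Mice 7 and 8 were high for both, but mouse 11 was high for Lin28a only and mouse 12 for Trim71 only. Against the floor, Lin28a was at least 127.8-fold higher in KO than in WT after PHx (480 counts against 0). Both genes failed the filter on low counts and were not tested.

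Hmga1 was the one gene of the 6 that was readily detected in all 20 libraries and whose KO level was not called different from WT. It was 8.78, 5.05, 7.51, 5.96 and 10.5 CPM in WT replicates 1 to 5 at baseline. After PHx in WT it was 20.0, 35.3, 18.3, 30.8 and 27.2 CPM. KO mice 7, 8, 10, 11 and 12 had 12.3, 9.04, 12.6, 10.5 and 16.8 CPM at baseline. After PHx they had 42.5, 42.6, 25.3, 11 and 51.5 CPM. WT groups before and after PHx did not overlap, whereas KO mouse 11 after PHx lay within the KO baseline range. PHx raised Hmga1 3.48-fold in WT (log2 1.80, SE 0.33, edgeR adjusted p = 0.00109) and 2.82-fold in KO (log2 1.5, SE 0.32, edgeR adjusted p = 0.00329), and the difference of these responses was not called (log2 -0.30, SE 0.45, edgeR adjusted p = 0.824). By mouse the ratio was 2.44 to 6.99 in 4 WT mice and 1.05 to 4.71 in 5 KO mice, the lowest being mouse 11. KO against WT gave a log2 difference of 0.70 at baseline (SE 0.32, edgeR adjusted p = 0.148) and 0.39 after PHx (SE 0.32, edgeR adjusted p = 0.391). The baseline difference was called with library size alone as the scaling (adjusted p = 0.00863), in a fit of the 10 baseline libraries (0.0186) and without KO replicate 11 after PHx (0.0491), over a range from 0.00863 to 0.291. The end of Hmga1 overlaps AI413582 on the other strand (group means of 1.37 to 2.59 CPM), and a near-identical copy, Hmga1b, had group means of 0.143 to 0.794 CPM, and reads cannot be told apart where these sequences coincide.

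Hmga2, the paralog that is known as a let-7 target of the embryo and of tumours, was low throughout. In WT at baseline, replicates 3 and 4 had 1 count each and the others none. After PHx in WT the 5 libraries had 5, 3, 10, 14 and 11 counts, or 0.130 to 0.496 CPM. KO mice 7, 8 and 10 had 11 counts each at baseline, and mice 11 and 12 had none. After PHx the KO mice 7, 8, 10, 11 and 12 had 58, 103, 8, 23 and 15 counts, which is 1.74, 2.26, 0.305, 0.639 and 0.71 CPM. As for Lin28b, the 2 KO libraries at 48 h were highest, and KO mouse 10 lay within the WT range. Hmga2 was called higher in KO at baseline (33 counts against 2, a ratio of 12.7 with a 95% counting interval of 3.24 to 109.0; edgeR adjusted p = 0.0434). It passed the filter on low counts only with the libraries after PHx included. In a fit of the 10 baseline libraries it was not tested. The KO and WT baseline libraries overlapped at 0, and the call was lost without any 1 of the 5 WT baseline libraries, KO replicates 7, 8 or 10 at baseline, or WT replicate 3 after PHx (adjusted p up to 0.0971), and with no filter on low counts (0.0544). After PHx the KO difference was log2 1.80 (SE 0.75, edgeR adjusted p = 0.0877) and was not called; it was called without KO replicate 10 after PHx (0.0444) and with library size alone as the scaling (0.0396). PHx raised Hmga2 in WT (43 counts against 2, a ratio of 16.3 with an interval of 4.26 to 139.2; edgeR adjusted p = 0.020) and in KO (log2 2.19, SE 0.77, edgeR adjusted p = 0.0382). With the mouse as a replicate block over the 9 mice paired by number, neither rise was called (adjusted p = 0.0628 in WT and 0.0520 in KO). In a fit of the 10 WT libraries alone Hmga2 failed the filter on low counts and was not tested, and with no filter on any gene in the fit of all 20 it was called in WT (edgeR adjusted p = 0.0248). The WT call was also lost without WT replicate 2 or 5 at baseline, and the KO call without KO replicates 7, 10, 11 or 12 at baseline or 7 or 8 after PHx. The KO call was lost too with no filter on low counts (adjusted p = 0.070), in the fit of the 10 KO libraries (0.0877) and with a time term (0.0532). The difference of the responses was not called (log2 -1.52, SE 1.27, edgeR adjusted p = 0.648).

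**Figure D4:**
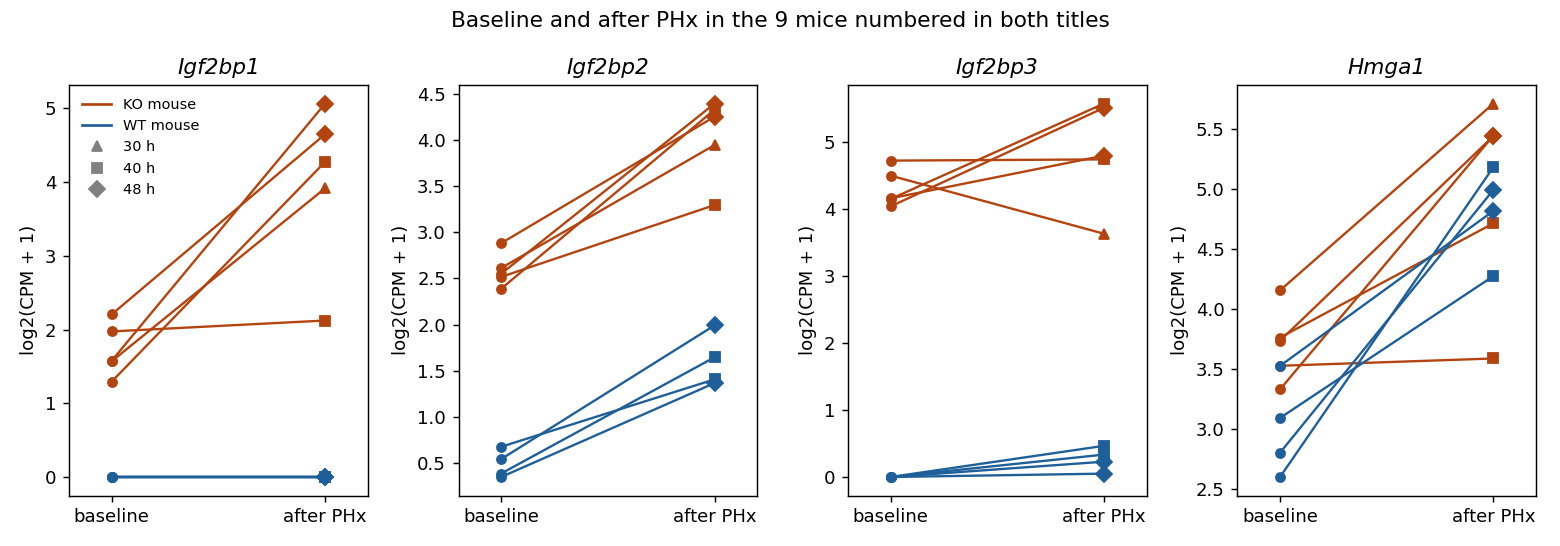
log2(CPM + 1) at baseline and after PHx, joined by mouse, for the 9 mice whose number is in both titles (orange-brown: KO; blue: WT; shape: hours after PHx). Igf2bp2 rises in all 9 mice, Igf2bp1 changes little in KO mouse 10, and Igf2bp3 falls only in the KO mouse at 30 h.

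Read together over the tested contrasts, PHx in WT called Igf2bp2 and Hmga1, which also passed the filter on the WT libraries alone, and Hmga2, which passed it only with the KO libraries included. PHx in KO called Igf2bp1, Igf2bp2, Hmga1 and Hmga2, and not Igf2bp3. For Igf2bp1 and Igf2bp3 this contrast ran over KO libraries that helped to choose them. Of all genes, 20.1% were called in WT and 29.5% in KO. Of the 3 genes whose genotype contrast was not used to choose them, Igf2bp2 and Hmga2 were called higher in KO at baseline and Igf2bp2 alone after PHx, where 11.1% and 16% of all genes were called higher. The baseline call of Hmga2 held under 14 of 24 alternatives, and Hmga2 passed the filter only with the libraries after PHx included. The gene with the highest mean level per exon length was Hmga1 in every group. Its mean was 3.56 CPM per kb in WT baseline, 12.4 in WT after PHx, 5.76 in KO baseline and 16.3 in KO after PHx. In KO mouse 11 after PHx, Igf2bp3 was higher than Hmga1 (5.73 against 5.18 CPM per kb). Lin28b had the lowest mean in KO, at 0.00624 CPM per kb at baseline and 0.0788 CPM per kb after PHx.

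**Figure D5:**
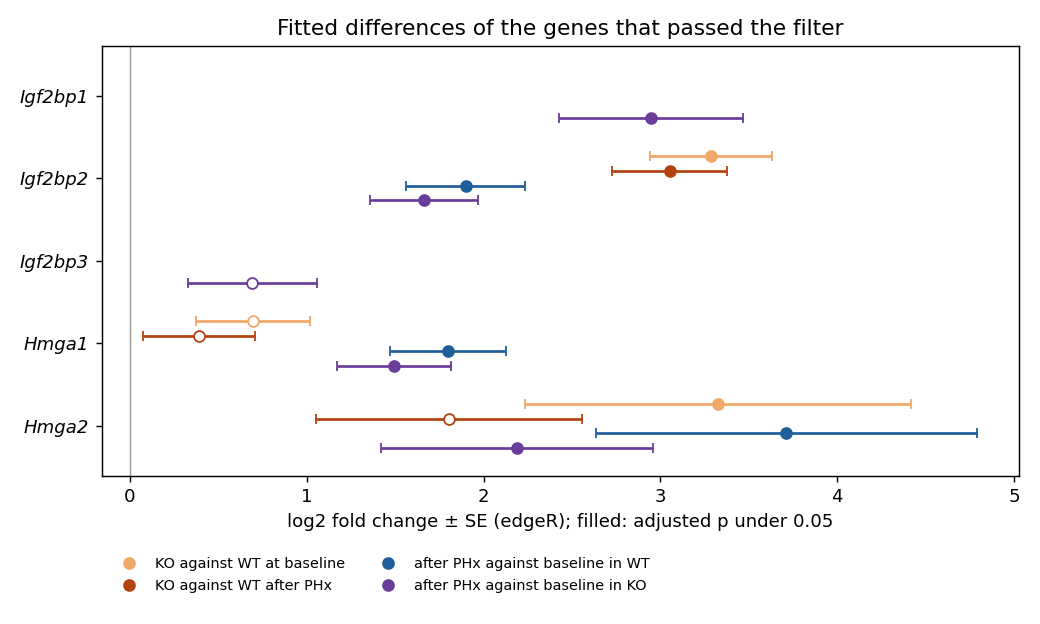
log2 fold changes with SE from edgeR for the contrasts that were not used to choose the gene (filled: adjusted p under 0.05; open: not called). Igf2bp2 differs in all 4 contrasts, Hmga1 in the 2 contrasts of stage only, and the bars of Hmga2 are the widest. Igf2bp3 in WT, where baseline has no count, and Lin28b are not drawn. The KO libraries behind the points of Igf2bp1 and Igf2bp3 also helped to choose these genes.

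Several measures of cell makeup and of the cell cycle moved with these groups, and their part in the results was not tested. KO mouse 10 after PHx, which had the lowest Igf2bp1, Igf2bp2 and Hmga2 of its group, had the highest summed level of 34 G2M genes in that group (1726 CPM, against 47.6 to 256.8 CPM in the other 4) and of 31 S phase genes (1647 against 312.3 to 585.7 CPM). The same mouse had the lowest summed level of 15 cholangiocyte markers in its group (401.2 CPM), and mouse 8, with the highest Igf2bp1, Lin28b and Hmga2, had the highest (1120 CPM). Over groups, the cholangiocyte sum ranged from 128.1 to 183.1 CPM in WT at baseline, 129.5 to 395.1 in WT after PHx, 265.5 to 639.0 in KO at baseline and 401.2 to 1120 in KO after PHx, with no marker at 0. Of the 14 of these markers tested, 5 were called higher in KO at baseline and 10 after PHx, where 11.1% and 16% of all genes were called higher. Of 15 macrophage markers, 7 and 4 were called higher, and of 15 stellate and fibroblast markers, 9 and 6. Of 15 endothelial markers, 2 and 1 were called higher, and of 8 lymphocyte and neutrophil markers tested, 1 and 0. The sum of 17 hepatocyte markers lay between 161548 and 186437 CPM in WT at baseline and between 101221 and 135849 CPM in KO at baseline, with 6 markers called lower, where 4.89% of all genes were called lower. Of 18 erythroid and progenitor markers 10 were tested, of which 1 was called higher and 1 lower in KO at baseline and 2 higher and 3 lower after PHx, where 8.2% of all genes were called lower. Of the embryonic globins, Hbb-bh1 had no count, and Hbb-y and Hba-x reached at most 0.0423 and 0.0947 CPM in any library. The G2M sum also moved with genotype at baseline, from 22.02 to 35.4 CPM in WT and from 88.8 to 342.4 CPM in KO, with no overlap. Of these 34 genes 5 were called higher there with edgeR and 22 with DESeq2, and their median log2 difference was 3.96. The lowest and highest G2M sums of WT after PHx, 17.9 and 3133 CPM, were in replicates 4 and 5, which had 30.8 and 27.2 CPM of Hmga1.

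The machinery around this circuit comprised 23 other tested genes for LIN28 and IGF2BP partners and the let-7 pathway. Of them 0 were called higher and 1 lower in KO at baseline, where 11.1% and 4.89% of all genes were (Dicer1, which cuts microRNA precursors, log2 -0.46, edgeR adjusted p = 0.0323). DESeq2 likewise called 0 higher there, and 0 were higher at an unadjusted p under 0.05, while the fit of the 10 baseline libraries called 1 higher and 2 lower. Over all genes that fit called 5242, against 2348 in the main fit. After PHx 1 was called higher and 3 lower, where 16% and 8.2% of all genes were. DESeq2 gave 1 higher and 5 lower, and the fit of the 10 libraries after PHx gave 0 and 1. Over all genes the latter fit called 1345, against 3544 in the main fit. Tut4, which adds the uridine tail that marks let-7 precursors for decay, was higher (log2 1.3, adjusted p = 0.0235), and Dis3l2, the nuclease that degrades the tailed precursors, was lower (log2 -0.77, adjusted p = 0.00156), as were Ago3 (-0.64) and Dicer1 (-0.54). The list's median was -0.06 at baseline and -0.07 after PHx, against -0.03 and -0.01 for all genes tested. The Dicer1 call at baseline was lost without any of 11 libraries in turn, the Tut4 call without WT replicates 3 or 4 or KO replicates 7 or 8 after PHx, and without KO replicate 10 after PHx 6 genes were called lower. Of 21 writers, readers and erasers of m6A, the RNA mark that IGF2BP proteins are known to read, 1 was called lower in KO at baseline (Ythdf3, log2 -0.62) against 4.89% of all genes. After PHx 3 (14.3%) were called higher (Ythdf2, Rbm15b and Ythdf1) and 1 lower (Mettl16), where 16% and 8.2% of all genes were. The medians were -0.22 at baseline and 0.04 after PHx. These small m6A counts changed to between 0 and 5 with single libraries left out. In fits of the 10 libraries compared they were 3 lower at baseline, and 0 higher and 0 lower after PHx.

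Described targets of let-7 and of the IGF2BP proteins include receptors, cyclins and growth factors. Of 49 other let-7 targets tested, 8 (16.3%) were called higher and 1 lower at baseline, where 11.1% of all genes were called higher and 4.89% lower. After PHx 15 (30.6%) were called higher and 0 lower with both edgeR and DESeq2 (3 lower at an unadjusted p under 0.05), where 16% of all genes were called higher and 8.2% lower. Such lists were written with results of these data known, and these shares carry no test. The medians were 0.27 and 0.40, against -0.03 and -0.01 over all genes. Igf1r, the receptor for IGF1 and IGF2, was 0.326 ± 0.0574 CPM in WT and 7.10 ± 2.08 CPM in KO at baseline (SD, n = 5; log2 4.43, SE 0.39, edgeR adjusted p = 5.95e-07), and did not overlap between genotypes. Fzd3, a Wnt receptor, was higher by log2 3.51 at baseline, and Slc5a9, with no count in WT, was at least 53.2-fold higher after PHx. The baseline count of 8 fell to 5 without WT replicate 5 or without KO replicate 11 at baseline, and the fit of the 10 baseline libraries gave 13 higher and 5 lower. Over all genes that fit called 5242, against 2348 in the main fit, so the shares of all genes given here do not apply to it. The fit of the 10 libraries after PHx called 1345, against 3544. Of 32 described IGF2BP-bound mRNAs, which include some of the same genes, 8 were called higher and 1 lower at baseline (5 lower in the fit of the 10 libraries compared), where 11.1% and 4.89% of all genes were. After PHx 9 were called higher (5 without WT replicate 3 after PHx and 4 in the fit of 10 libraries), where 16% of all genes were, and 0 lower with edgeR and with DESeq2 (1 at an unadjusted p under 0.05). The medians were 0.17 and 0.40. Ccnd1, which drives entry into S phase, was higher at baseline by log2 3.23 (adjusted p = 0.00701), and Myc by 2.21 (adjusted p = 0.0245). After PHx neither was called (log2 0.48 and 0.72).

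Genes of the IGF axis were called in both directions. Of 20 genes, 4 were called higher and 1 lower in KO at baseline, and 6 higher and 2 lower after PHx, with medians of 0.30 and 1.00. Over all genes 11.1% were called higher and 4.89% lower at baseline, and 16% and 8.2% after PHx. In fits of the 10 libraries compared the counts were 6 higher and 3 lower at baseline, and 5 and 1 after PHx. Over all genes those fits called 5242 at baseline and 1345 after PHx, against 2348 and 3544 in the main fit. Igf2, the fetal growth factor whose mRNA named the IGF2BP family, had 0.270 ± 0.275 CPM in WT and 1.15 ± 0.717 CPM in KO at baseline (SD, n = 5; edgeR adjusted p = 0.0593, not called). After PHx it was 0.11 ± 0.0662 CPM in WT and 15.9 ± 13.9 CPM in KO (SD, n = 5; log2 7.13, SE 0.86, edgeR adjusted p = 9.46e-06), and its response to PHx differed between genotypes (log2 5.06, SE 1.09, edgeR adjusted p = 0.0454; with the replicate block no gene of this list was called). H19, the noncoding RNA next to Igf2, was 0.174 and 3.30 CPM at baseline and 0.0722 and 31 CPM after PHx in WT and KO. Igf1, the adult growth factor made by hepatocytes, was lower in KO, at 547 against 858 CPM at baseline and 368 against 665 CPM after PHx (log2 -0.65 and -0.85, edgeR adjusted p = 0.0446 and 0.00689). The baseline call of Igf1 was lost when any of 12 single libraries was left out.

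Other oncofetal and fetal liver genes numbered 29 among the genes tested. Of these 16 (55.2%) were called higher in KO at baseline and 24 (82.8%) after PHx, where 11.1% and 16% of all genes were called higher. The medians were 2.60 and 3.81. At either stage 0 were called lower with edgeR, with DESeq2 or at an unadjusted p under 0.05. Genes with no count in WT at baseline, such as Sall4 and Dlk1, could not be called lower there. The list was written with results of these data known, and its shares carry no test. It shares Krt19, Epcam, Sox9 and Tspan8 with the cholangiocyte markers above. Gpc3, a cell-surface glypican of fetal liver and liver tumours, was 0.154 ± 0.122 CPM in WT and 19.8 ± 2.89 CPM in KO at baseline (SD, n = 5; log2 6.91, edgeR adjusted p = 1.58e-06). Afp, the fetal serum protein, was not called at baseline (0.471 against 1.07 CPM; edgeR adjusted p = 0.487) and was higher in KO after PHx (5.94 against 48.1 CPM; adjusted p = 0.0230). Sall4, a zinc finger factor of the embryo, had no count in WT at baseline and was at least 26.6-fold higher in KO. Among 11 other high mobility group genes 0 were called in KO at baseline with edgeR (2 higher and 1 lower at an unadjusted p under 0.05, 1 higher with DESeq2, and 3 higher and 2 lower in the fit of the 10 baseline libraries) and 1 after PHx (Hmgb3, log2 0.83; 0 in the fit of 10 libraries). Over all genes the fit of the 10 baseline libraries called 5242, against 2348 in the main fit. Hmgb2, which is known to rise in dividing cells, rose after PHx by log2 2.60 in WT and 1.88 in KO, among 4 genes of this list called higher in each genotype (2 in WT and 3 in KO with the replicate block), where 11.4% of all genes were called higher in WT and 17.5% in KO.

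Library size alone as the scaling raised the median of all genes by 0.48 on the log2 scale for KO against WT at baseline and by 0.38 after PHx, and the share of calls that were higher went from 69.5% to 96.9% and from 66.1% to 92.9%. Under it, 3521 of all 14661 genes tested were called higher and 113 lower at baseline, and 3897 and 296 after PHx. Of the lists, 18 let-7 targets and 13 IGF2BP-bound mRNAs were called higher at baseline, and 22 and 14 after PHx. The partner list gave 2 higher and 0 lower at baseline, and 3 higher and 0 lower after PHx. The IGF axis gave 7 higher and 0 lower at baseline and 9 and 1 after PHx, the m6A genes 0 and 0 at baseline and 7 and 0 after PHx, and the other high mobility group genes 4 and 0 at baseline and 3 and 0 after PHx. Under this scaling no tested difference changed sign among those of the 6 genes that passed the filter, which leaves out Lin28b.

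The genes with the most similar profiles over the 20 libraries were found by the root mean square difference of log2(CPM + 1), centred per gene, among 13277 protein-coding genes. For Igf2bp3 they were Myo15b (0.355), Gpc3 (0.463) and Calml4 (0.523), where the profile of Igf2bp3 itself had a root mean square of 2.26. For Igf2bp1 they were Sh3bp4 (0.370), Rab11fip5 (0.429) and Ralgds (0.443), against 1.73. For Igf2bp2 they were Serpinb6a (0.351), Sestd1 (0.353) and Elmo1 (0.364), against 1.31. Hmga1 was nearest to Fam118a (0.372), Lsm8 and Tnfrsf1a (0.414 each), against 0.911. Myo15b, the nearest gene of Igf2bp3, was 0.11 and 0.526 CPM in the 2 WT groups and 20.3 and 54.0 CPM in the 2 KO groups. Lin28b was nearest to Nrip3, Dock3 and Sept3 (0.186 to 0.207, against 0.415) and Hmga2 to B4galnt4, Fa2h and Cfap300 (0.157 to 0.215, against 0.458), where low counts limit the comparison. These distances are a description, and all 20 libraries are shared by the genes compared.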

How the data were processed

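Read counts per gene from 20 liver libraries, 5 in each of 4 groups, were analysed. The authors deposited 1 table of raw counts per Ensembl gene for each library. Per the series' design text, RNA with an integrity number above 8 went into TruSeq poly(A) libraries sequenced paired-end, and uniquely mapped reads on mm10 were counted. FastQC 0.11.5 was used, and trimming is given as fastp 0.20.0 in the design text and as Trimmomatic 0.36 in the submitters' processing notes. The aligner, counter, strand setting and annotation are not given in the sources used here. Reads shared by near-identical copies are lost under such counting.

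Symbols came from GENCODE M21 (46005 of 46603 identifiers), and 21018 identifiers had no count. Differential expression was tested with edgeR 4.0.16 in R 4.3.3 (quasi-likelihood, two-sided, TMM, filterByExpr, 14661 genes, 1 fit of 4 group means, Benjamini-Hochberg over all genes tested, threshold 0.05). The SE is the log2 fold change divided by the root of the F statistic. The script was tested on simulated data. Lin28b, which failed the filter, was compared by exact permutation over samples. A group without counts was given a floor of 3 counts, and floors and 95% intervals cover counting error only, because PCR copies are not marked. DESeq2 1.42.0, other filters and scalings, a time term, a mouse block and leaving out each library were alternatives.

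The members and lists were chosen with earlier results of these data known. Beyond the 6 members and 11 further genes fixed by name, the text names from each list up to 3 called genes each way in the genotype contrasts and up to 2 in the stage contrasts, with a mean of at least 1 CPM in a group. The nearest genes were taken as the 3 with the smallest profile difference. Same-numbered libraries come from 1 animal per the design text. In 9 mice the residual correlation of such pairs was -0.0549 to 0.152 (median 0.0379), and the title of WT baseline replicate 1 gives no mouse number. One gene of the described IGF2BP-bound mRNAs is counted with its list but not reported here by name.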

Additional observations from a re-analysis of the deposited data

Results flagged for a closer look

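Each of the 6 genes was examined in each of the 4 groups for a library that stands far from the other 4. Of 24 such groups, 20 had any spread and 1 had such a library. Lin28b in KO mouse 7 at baseline was 0.199 CPM (6 counts), against 0 to 0.0423 CPM in the other 4 KO baseline libraries, a gap of 0.788 of the whole range of the 5 libraries. The limit used is one that continuous values pass by chance in about 1 of 20 groups, and these values rest on 6, 1, 0, 1 and 0 counts. The same mouse had 1.65 CPM of Lin28b after PHx, 1 of the 2 high values there.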

How the results depend on the processing

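No alternative turned the direction of a value reported for the 6 genes. Genes called in KO against WT at baseline numbered 2348, and 3634 with library size alone or 5242 in a fit of the 10 libraries compared. After PHx 3544 became 1345 in the fit of 10 libraries, and for PHx in KO 4331 became 2878. Genes called for the difference of responses (57) became 90 with a time term, 7 with the replicate block, 376 with DESeq2, and 22 to 708 with 1 library left out, the highest without KO replicate 10 after PHx. Of the 3 members tested for genotype, 2 were called at baseline, and 1 with no filter, with a filter of 1 CPM in 5 libraries (where Hmga2 was not tested), or with 1 library left out (1 to 3), and 3 with library size alone; after PHx 1 was called, and 2 with library size alone or without KO replicate 10 (1 to 2 over libraries left out). The fit of the 10 baseline libraries also called 2 for genotype, Igf2bp2 and Hmga1, while Hmga2 failed the filter there and was not tested. For PHx in WT 3 of 3 were called, and 2 in the fit of 10 libraries, where Hmga2 failed the filter and was not tested. For the difference of responses 0 of 3 were called with edgeR, with DESeq2, with any 1 library left out and at an unadjusted p under 0.05. For Lin28b in KO, the rise of 0.658 CPM became 0.694 CPM and passed an unadjusted threshold without KO replicate 7 at baseline, and ranged from 0.419 to 0.825 CPM over the libraries left out. The replicate block, which pairs the 9 numbered mice, ended the PHx calls of Hmga2 in WT and KO and changed no other call of the 6 genes; for Lin28b the paired exact p was 0.0625 in KO and 1 in WT. Causes were not tested. At these depths a level under about 0.1 CPM rests on only a few counts, which holds for Hmga2 in WT at baseline and for Lin28b in all but 4 KO libraries.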
